A study of Mus musculus with 10 samples.

Results

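The genes of NRF2 and its antioxidant response described here are 10 of the 43629 genes in the count table, chosen by symbol: the regulators Nfe2l2 and Keap1 and the targets Nqo1, Hmox1, Gclc, Gclm, Txnrd1, Srxn1, Gsr and Slc7a11. All 10 symbols were found, and glutathione S-transferases were left out by the same rule.
NRF2, encoded by Nfe2l2, is the transcription factor that switches on antioxidant and detoxifying genes. Along with NRF1 and NRF3, it is a mammalian counterpart of worm SKN-1. KEAP1 binds NRF2 and hands it to a CUL3 ubiquitin ligase for destruction. Oxidants and electrophiles modify KEAP1, NRF2 then accumulates, pairs with a small MAF protein and binds antioxidant response elements near its targets. Most of this control acts on the NRF2 protein, so the target transcripts are the usual readout of its activity. In the kidney, the pathway protects tubule cells, which carry a high load of mitochondria and of filtered toxicants.
The data are counts of polyA RNA from kidneys of UM-HET3 mice, a genetically heterogeneous stock, so that littermates differ in genotype. All animals were males aged 4 months. The 4 treated mice had eaten a Purina diet with 10 ppm of rilmenidine, an I1-imidazoline receptor agonist prescribed against hypertension, for 1 month after reaching 3 months, and the 6 littermate controls had eaten the same diet without the drug. SKN-1 was tested in worms for its part in the longevity effect of the drug, and the comparison asked here is whether the mouse pathway's transcripts differed between control and treated kidneys.
The libraries held 863605 to 2559118 counts in control kidneys and 1813465 to 3232063 in rilmenidine kidneys. The extraction text names liver, but all 7 proximal tubule markers had counts in every library, and 5 liver markers together reached at most 26.4 normalized CPM (counts scaled to a common library total, with size factors), with Alb, Apoa1, Fgb and Cps1 at 0 in some libraries. Malat1, a nuclear RNA, was at 1182 to 2100 normalized CPM in control kidneys 1, 3, 4 and 5. It was at 398 and 284 in control kidneys 2 and 6 and at 306 to 393 in rilmenidine kidneys. Malat1 thus went partly with the group, and a fit with log2 Malat1 as a covariate cannot tell its part from that of the drug. Reads on olfactory and vomeronasal receptor genes were under 10 CPM in control kidney 6 and rilmenidine kidneys 3 and 4 and from 51.7 to 436 CPM in the other 7 libraries. In whole kidney, fewer cells that express a gene and less RNA per cell cannot be told apart.

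The DNA letters through which NRF2 acts were looked up for the 7 genes that matched a RefSeq promoter window (GRCm38.p6, 250 bases before to 50 after the start of the gene). Hmox1, Gclc and Gsr were not matched. The antioxidant response element has the core TGACNNNGC, and TGAGNNNGC is a related form. Either form can match sites shared with AP-1. Both strands were searched, and the motifs cannot match the same letters because they differ at the base after TGA. The core TGACNNNGC was present in 4 of the 7 genes and in 14% of the 26994 genes of the table. The form TGAGNNNGC was present in 2 of the 7 and in 19.9% of the table. The genes were chosen by symbol and not by motif, and binding of NRF2 to these sites was not tested. The sites before the start of the gene are shown, each on the strand that reads as the motif, with the 9 matching bases in capitals.
Nfe2l2, chr2:75704895-75704903, 240 bases before the start: cccaccTGACTCCGCcatgcc
Gclm, chr3:122245423-122245431, 134 bases before the start, opposite strand: gagagtTGACGGTGCgcccgg
Txnrd1, chr10:82859114-82859122, 92 bases before the start of 1 of its 3 windows, opposite strand: tcagaaTGACAAAGCaaaaat
Srxn1, chr2:152105479-152105487, 45 bases before the start: tcacccTGAGTCAGCggccgg
Srxn1, chr2:152105366-152105374, 158 bases before the start, opposite strand: agaggaTGAGTCGGCtctcag
Slc7a11, chr3:50443702-50443710, 97 bases before the start, opposite strand: ccagctTGAGAAAGCgccaac
Srxn1 held a further match to the core after its start, and the windows of Keap1 and Nqo1 held neither form. A match is a description of letters, and elements outside these 300 bases were not searched.

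None of the 9 genes that could be tested passed the threshold for a difference between control and rilmenidine kidneys. The test was edgeR's quasi-likelihood fit of 10055 genes, adjusted by Benjamini-Hochberg. An adjusted p under 0.05 was reached by 0 of the 9 and by 0% of all genes tested. Before adjustment, 0 of the 9 were under 0.05 and 10.6% of all genes were. DESeq2 and the edgeR likelihood ratio test also called 0 of them. The adjusted p-values ran from 0.644 for Gclm to 0.990 for Nfe2l2. Values of the groups overlapped for every one of the 9 genes, where the groups were apart for 1.67% of all genes (0.796% higher and 0.875% lower with rilmenidine). Slc7a11 had too few reads for the filter of at least 6 reads in 7 of the 10 libraries and is described by its raw counts.

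**Figure D1:**
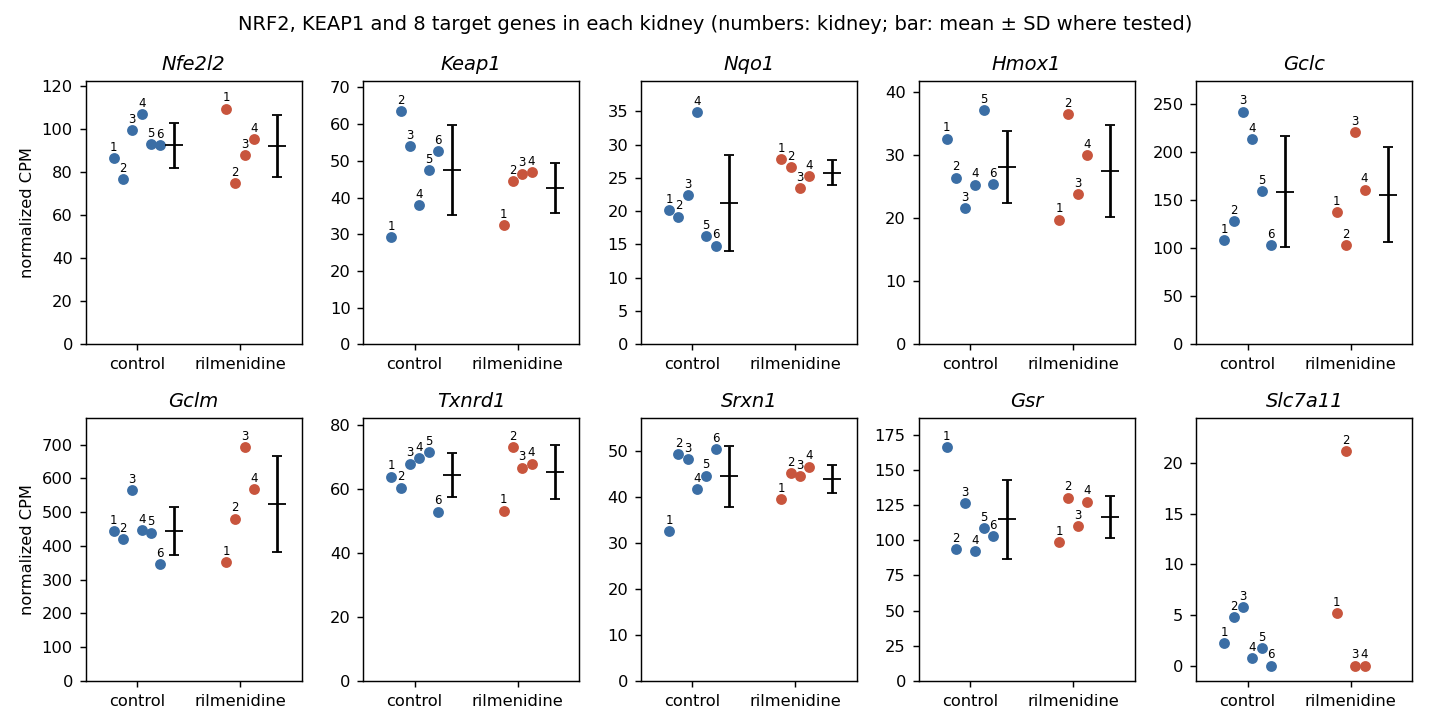
Normalized CPM of the 10 genes in each kidney (y axis, linear, a separate scale for each gene), with control kidneys in blue and rilmenidine kidneys in red, and the kidney number above each point. The bar is the mean ± SD of 6 control and 4 rilmenidine kidneys, left out for Slc7a11, which is at 0 in 3 libraries. The groups overlap in every panel.

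Of the regulators, Nfe2l2 (ENSMUSG00000015839, chromosome 2 of GRCm38, 75675513 to 75704641) was nearly equal in the groups. Its lowest, median and highest control values were 76.7, 92.96 and 107 normalized CPM, and rilmenidine kidneys 1 to 4 had 109.6, 74.9, 88.2 and 95.6. The treated kidneys thus held both the highest and the lowest value of all 10. The means were 92.6 ± 10.5 (SD, n = 6) and 92.1 ± 14.5 (SD, n = 4), a fold of 0.994 with a 95% interval from 0.812 to 1.22 in the edgeR fit.
Keap1 (ENSMUSG00000003308, chromosome 9, 21229730 to 21239361) encodes the sensor that restrains NRF2. Control kidneys had a lowest value of 29.2, a median of 50.03 and a highest of 63.5 normalized CPM, and rilmenidine kidneys 1 to 4 had 32.5, 44.5, 46.5 and 46.8. All 4 treated kidneys were below the control median, but within the control range. The means were 47.4 ± 12.3 (SD, n = 6) and 42.6 ± 6.82 (SD, n = 4), a fold of 0.891 (95% interval 0.675 to 1.18), with adjusted p = 0.811 (edgeR). The log2 fold change of -0.17 was -0.064 without rilmenidine kidney 1 and -0.067 without control kidney 2, and -0.47 with log2 library size and -0.39 with log2 Malat1 as a covariate, and no adjusted p was under 0.671 in any alternative (edgeR or DESeq2).
The ratio of Nfe2l2 to Keap1 varied more between animals of a group than between the groups. It ran from 1.21 to 2.96 in control kidneys, with a mean of 2.09 ± 0.672 (SD, n = 6). Rilmenidine kidneys 1 to 4 had ratios of 3.38, 1.68, 1.89 and 2.04, a mean of 2.25 ± 0.765 (SD, n = 4).

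Glutathione synthesis is represented by Gclc and Gclm, the catalytic and modifier subunits of glutamate-cysteine ligase, which makes the rate-limiting step. Gclm (ENSMUSG00000028124, chromosome 3, 122245557 to 122270732) was the most abundant of the 10 genes. Its control values had a lowest of 345, a median of 441 and a highest of 565 normalized CPM. Rilmenidine kidneys 1 to 4 had 353, 481, 692 and 569, so that kidneys 3 and 4 lay above every control and kidney 1 near the lowest. The means of 443 ± 70.7 (SD, n = 6) and 524 ± 143 (SD, n = 4) gave a fold of 1.18 (95% interval 0.922 to 1.52) and an unadjusted p-value of 0.173 in the edgeR fit, the smallest of the 9. Among the 7 libraries rich in receptor gene reads (10 CPM or more), which leave out rilmenidine kidneys 3 and 4 and control kidney 6, the log2 fold change turned from 0.24 to -0.15, and it was 0.079 without rilmenidine kidney 3 alone and 0.39 without rilmenidine kidney 1. Of the 7 proximal tubule markers, Kap made up most of the sum and was highest in rilmenidine kidneys 3 and 4, with 59590 and 49145 normalized CPM against 31432 to 46303 in the other 8. The remaining 6 markers together were not: they summed to 7427 in rilmenidine kidney 3, the lowest of the 10, and 8990.3 in rilmenidine kidney 4, against 7661 to 9735 in the other 8. The 6 markers of other nephron segments summed to 2328 and 2447 in rilmenidine kidneys 3 and 4, against 1267 to 1947 in the other 8, and Nphs1 was at 0 in some libraries. Umod made up most of this sum, at 1906 and 1986 normalized CPM in rilmenidine kidneys 3 and 4 against 909 to 1501 in the other 8. The markers did not rise there as a set. Slc12a1 had 229 and 270 in these kidneys, within its range of 116 to 285 in the other 8. Slc12a3 was lowest there, at 52.1 and 70.9. Of the 6 markers, Umod of the thick ascending limb and Aqp2 of the collecting duct had log2 fold changes of 0.61 and 0.58 (unadjusted p = 0.00237 and 0.00134, adjusted p = 0.244 and 0.229 in edgeR), and Slc12a3 of the distal tubule was at -0.55 (unadjusted p = 0.00922, adjusted p = 0.313). All 4 treated kidneys lay above every control for Aqp2. Havcr1, the tubular injury marker KIM-1, did not pass the filter. It was also highest in rilmenidine kidneys 3 and 4, with 45.5 and 28.1 normalized CPM against 1.17 to 11.6 in the other 8 kidneys. Spp1 and Vcam1 were not highest in those 2 kidneys. Spp1 had 226, 264, 187.5 and 181 normalized CPM in rilmenidine kidneys 1 to 4. Control kidneys 1 to 5 had 111 to 165, below all 4 treated kidneys, and control kidney 6 had 228. Its log2 fold change was 0.54 (unadjusted p = 0.0107, adjusted p = 0.321 in edgeR). Vcam1 was highest in control kidney 2, at 12.6. The injury markers were a list of 5 genes, of which Lcn2 and Krt20 were at 0 in some libraries, and Spp1 made up most of their sum. They summed to 123 to 177 in control kidneys 1 to 5 and to 234 in control kidney 6. In rilmenidine kidneys 1 to 4 the sums were 233, 283, 241 and 221. The part of these markers in the Gclm values was not tested.
Gclc (ENSMUSG00000032350, chromosome 9, 77754535 to 77794485) varied most among the control kidneys of the 9 genes. Its lowest, median and highest control values were 102.5, 143 and 241.5 normalized CPM, and rilmenidine kidneys 1 to 4 had 137, 102.6, 220.0 and 160.5. Both groups spanned about the same range. The control coefficient of variation was 36.3%, where counting error alone would give 7.01%. The fold was 0.984 (95% interval 0.689 to 1.405), and its log2 value of -0.023 became -0.50 within the 7 libraries and 0.34 with log2 Malat1 as a covariate. The ratio of Gclc to Gclm was 0.352 ± 0.0880 (SD, n = 6) in control and 0.301 ± 0.0736 (SD, n = 4) in rilmenidine kidneys.
Slc7a11 (ENSMUSG00000027737, chromosome 3, 49892526 to 50443614), the cystine carrier that supplies cysteine for glutathione, was barely detected. Control kidneys 1 to 6 had 2, 8, 7, 1, 3 and 0 raw counts, and rilmenidine kidneys 1 to 4 had 9, 39, 0 and 0. A count of 0 allows up to 3 counts, or 1.17, 0.986 and 0.928 CPM in control kidney 6 and rilmenidine kidneys 3 and 4, counting error only. The 3 libraries at 0 are the same 3 that had under 10 CPM on receptor genes, and the library with 39 counts, rilmenidine kidney 2, had the most receptor gene reads, at 436 CPM. The part of whatever gave the receptor gene reads was not tested. With every gene of at least 1 count kept, the log2 fold change was 1.34, with adjusted p = 0.553 (edgeR), and most of the treated counts were those of rilmenidine kidney 2.

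**Figure D2:**
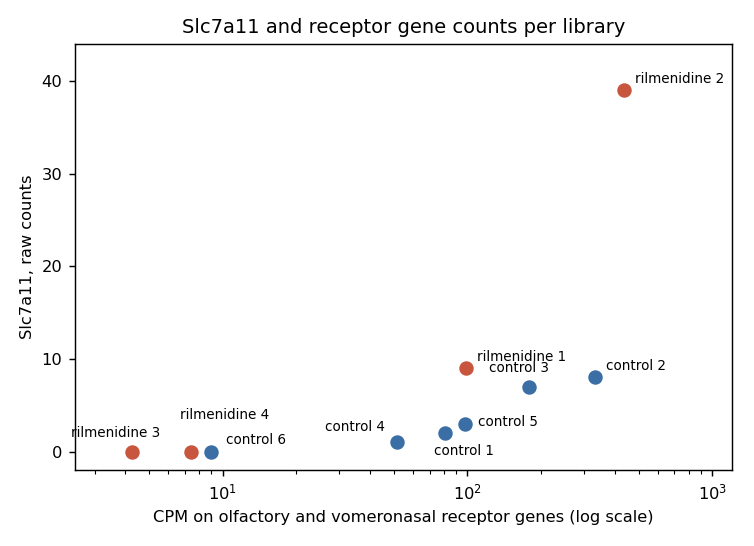
Raw Slc7a11 counts (y axis) against CPM on olfactory and vomeronasal receptor genes (x axis, log scale) in each of the 10 libraries, control in blue and rilmenidine in red. The 3 libraries under 10 CPM have 0 counts of Slc7a11, and rilmenidine kidney 2 is highest on both axes.

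Glutathione recycling depends on Gsr, glutathione reductase, which uses NADPH. Gsr (ENSMUSG00000031584, chromosome 8, 33652523 to 33698163) had a lowest control value of 92.1, a median of 105.8 and a highest of 166 normalized CPM. Rilmenidine kidneys 1 to 4 had 98.6, 130.3, 110.2 and 127. Control kidney 1 alone lay above the treated kidneys. The fold was 1.02 (95% interval 0.806 to 1.30), and its log2 value of 0.034 was 0.25 once log2 library size was added to the fit.
The thioredoxin arm is represented by Txnrd1, the cytosolic thioredoxin reductase, and Srxn1, sulfiredoxin, which restores over-oxidized peroxiredoxins. Txnrd1 (ENSMUSG00000020250, chromosome 10, 82833951 to 82897712) had control values of 53.0 at the lowest, 66.0 at the median and 71.7 at the highest, and 53.4, 73.3, 66.8 and 68.1 normalized CPM in rilmenidine kidneys 1 to 4. It was the steadiest of the 10 genes, with a control coefficient of variation of 10.8% against 10.5% from counting error alone. Its fold was 1.02 (95% interval 0.831 to 1.25), and its log2 value of 0.026 was 0.21 with log2 Malat1 as a covariate.
Srxn1 (ENSMUSG00000032802, chromosome 2, 152105516 to 152111376) had control values of 32.5, 46.3 and 50.3 normalized CPM at the lowest, median and highest. Rilmenidine kidneys 1 to 4 had 39.4, 45.1, 44.4 and 46.5, all inside the control range. The fold was 0.981 (95% interval 0.792 to 1.215).

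The inducible target enzymes are Nqo1, a quinone reductase that serves as the standard NRF2 reporter gene, and Hmox1, heme oxygenase 1. Nqo1 (ENSMUSG00000003849, chromosome 8, 107388225 to 107403206) had the largest fold change of the 9. Its control values were 14.8 at the lowest, 19.7 at the median and 34.9 at the highest, and rilmenidine kidneys 1 to 4 had 27.8, 26.6, 23.4 and 25.3 normalized CPM. Every treated kidney lay above 5 of the 6 controls and below control kidney 4. The means were 21.3 ± 7.22 (SD, n = 6) and 25.8 ± 1.88 (SD, n = 4), a fold of 1.23 (95% interval 0.887 to 1.70). In the edgeR fit, p was 0.200 before and 0.676 after adjustment. These levels rest on 18 to 81 raw counts per library, and the treated kidneys were closer together than counting error (7.30% against 13.1%). The log2 fold change of 0.30 was 0.49 without control kidney 4, 0.19 without control kidney 6, 0.57 with log2 library size and 0.55 with log2 Malat1 as a covariate, and 0.087 among kidneys 1 to 4 of both groups, and no adjusted p was under 0.547 in any alternative (edgeR or DESeq2).
Hmox1 (ENSMUSG00000005413, chromosome 8, 75093621 to 75100589), which is also expressed in macrophages that clear red cells, had control values of 21.6, 25.9 and 37.0 normalized CPM at the lowest, median and highest. Rilmenidine kidneys 1 to 4 had 19.7, 36.4, 23.8 and 30.0. Low and high kidneys occurred in both groups, and the fold was 0.983 (95% interval 0.730 to 1.32). Of 8 macrophage markers, 6 had counts in every library, Adgre1 and Cd68 were at 0 in some, and the list summed to 68.1 to 155 normalized CPM in control and 104 to 128 in rilmenidine kidneys. The 5 blood markers summed to 980 to 8803 and 2874 to 4115, with Alas2 at 0 in some libraries. Control kidney 2 had the highest blood and macrophage sums and an Hmox1 value of 26.4. The part of blood or macrophages in the Hmox1 values was not tested.

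**Figure D3:**
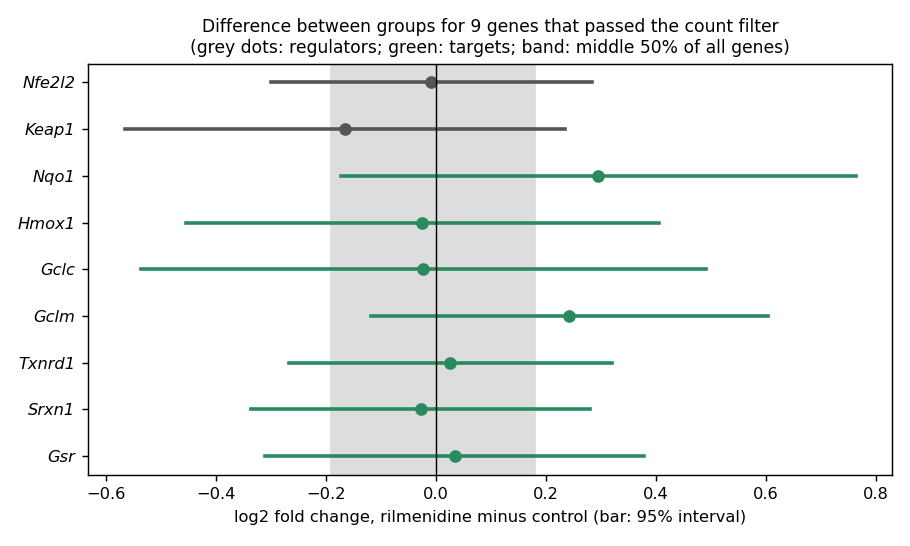
Log2 fold change of rilmenidine minus control kidneys (x axis) for the 9 genes that passed the filter, as a point with its 95% interval from the edgeR fit, regulators in grey and targets in green. The band holds the middle 50% of all 10055 genes tested, from -0.19 to 0.18. Every interval crosses 0, and Nqo1 and Gclm lie outside the band.

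The regulators and the targets were described side by side, with no test over them. Both regulators were below 0, as were 49.7% of all genes, with log2 fold changes of -0.0086 and -0.17. Of the 7 targets tested 4 were above 0, with a median of 0.026, where 50.3% of all genes were above 0 with a median of 0.0021. The targets did not move as 1 block: Nqo1 and Gclm were at 0.30 and 0.24, and Hmox1, Gclc, Txnrd1, Srxn1 and Gsr lay between -0.028 and 0.034. Of the 5 genes with a core or related motif in their window, Slc7a11 could not be tested in this fit, and Nfe2l2, Gclm, Txnrd1 and Srxn1 were at -0.0086, 0.24, 0.026 and -0.028, and Keap1 and Nqo1, with neither, at -0.17 and 0.30. With log2 Malat1 as a covariate the median of the targets was 0.21, and within the 7 libraries it was -0.044 with 1 of the 7 above 0.

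**Figure D4:**
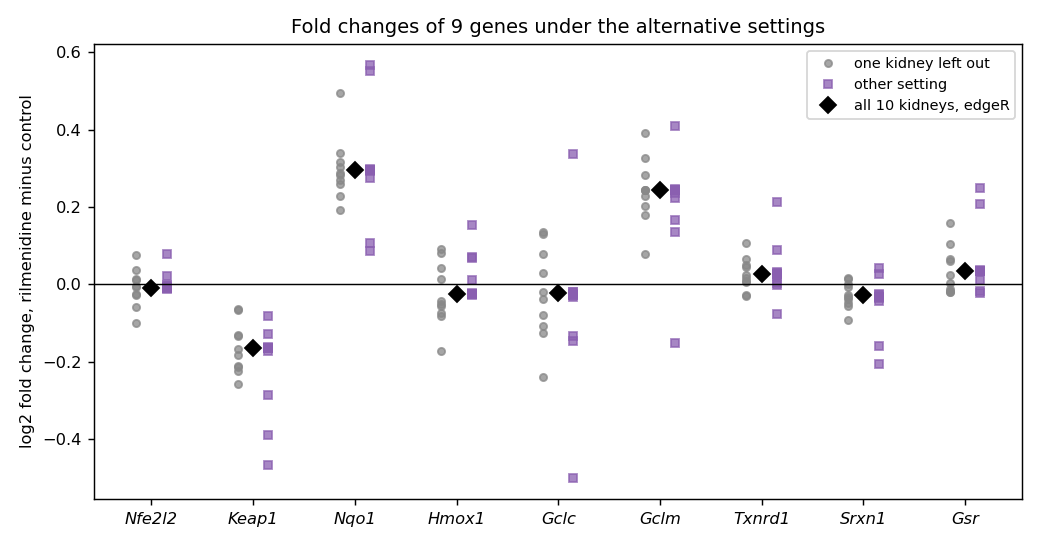
Log2 fold change of rilmenidine minus control kidneys (y axis) for the 9 genes in the fit of all 10 kidneys (black), with 1 kidney left out (grey) and under the other settings (purple). Keap1 stays below 0 and Nqo1 above 0 throughout, and the other 7 genes have points on both sides.

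In their level per length (normalized CPM per kilobase of merged exons), control kidneys ranked Gclm first at 70.5 ± 11.2 (SD, n = 6), followed by Gclc at 42.1 ± 15.3, Gsr at 41.7 ± 10.2 and Nfe2l2 at 24.4 ± 2.75. Hmox1, Srxn1, Nqo1, Keap1 and Txnrd1 came next with 16.0, 15.7, 13.7, 10.1 and 9.11, and Slc7a11 last with 0.183. Gclm stood above Gclc in 10 of the 10 kidneys, and Gsr above Nfe2l2 in 10 of 10. Gclc and Gsr changed places between kidneys, with Gclc higher in 5 of 10, and so did Hmox1 and Srxn1 (4 of 10), Srxn1 and Nqo1 (6 of 10) and Keap1 and Txnrd1 (5 of 10). The library protocol the labels cite reads the 3′ end of transcripts, where counts need not grow with length. Without division by length Txnrd1 took the fifth place, and the first 4 places were the same.
The genes whose profile over the 10 kidneys was nearest to that of Nfe2l2 were Trmu, Chm and Gkap1. The likeness is the root mean square difference between standardized log2 profiles, which was 0.385, 0.475 and 0.477 for these 3 and had a median of 1.35 over all genes. For Nqo1 they were Tspyl1, Zfp629 and Gnal, at 0.477, 0.503 and 0.511. No other member of the pathway was among them. With 10 points per profile and 10055 genes to choose from, near profiles arise readily, and they are given as a description.

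The wider pathway was read in 48 further genes in 5 lists, of which 38 passed the filter. Of the 38, 0 had an adjusted p-value under 0.05, 5 were higher and 2 lower at an unadjusted p-value under 0.05, where 4.43% and 6.13% of all genes were. Above 0 were 28 of the 38, where 50.3% of all genes were, and their median was 0.16. The lists were chosen with earlier results of these data known, so the counts of direction here and below are a description only.
Other regulators showed no common direction, with 4 of 9 above 0 and a median of -0.031. Mafg, a small MAF partner of NRF2, had 90.04 ± 11.3 (SD, n = 6) normalized CPM in control and 70.2 ± 12.8 (SD, n = 4) in rilmenidine kidneys, a log2 fold change of -0.35 with adjusted p = 0.408 (edgeR). Gsk3b, a kinase that marks NRF2 for degradation apart from KEAP1, was at -0.38, with adjusted p = 0.456 in the same fit. With log2 Malat1 as a covariate Mafg was at -0.16 and Gsk3b at -0.064, and Gsk3b was at -0.14 when log2 library size was used. At the other end were Park7 at 0.21 and Rbx1, the RING subunit of the CUL3 ligase, at 0.13. Mafk, Maff and Nfe2l3 had too few reads to test.
The glutathione and thioredoxin genes were all above 0, 7 of 7, with a median of 0.22. Txn1, thioredoxin itself, had 503 to 682 normalized CPM in control kidneys and 771, 678, 794 and 750.1 in rilmenidine kidneys 1 to 4, 0.31 higher on the log2 scale, with a standard error of 0.12 and adjusted p = 0.371 in edgeR. Its reductase Txnrd1 was at 0.026, and the difference between them was not tested. Prdx1, a peroxiredoxin that thioredoxin reduces, had 1724 to 2607 normalized CPM in control kidneys and 2847, 2735, 3113 and 2579 in rilmenidine kidneys, a log2 fold change of 0.35 with adjusted p = 0.390 in the same test. With log2 Malat1 as a covariate they were at 0.16 and 0.13. For Txn1 and Prdx1 alike, control kidneys 2 and 6 had the highest control values (653 and 682, 2464 and 2607), and these are the controls with Malat1 at the level of the treated kidneys. The parts of Malat1 and of the drug in these values cannot be told apart. Gss, glutathione synthetase, was at 0.40, with 100.9, 96.7, 174 and 126 normalized CPM in rilmenidine kidneys 1 to 4 and 75.8 to 135 in control kidneys. Rilmenidine kidney 3 alone lay above the controls, and the log2 fold change was 0.19 without it and 0.024 within the 7 libraries. Prdx6 and Ggt1 were at 0.10 and 0.034. With log2 Malat1 as a covariate the median of this list was 0.059 with 5 of 7 above 0, and with log2 library size it was 0.077.
The genes that supply NADPH, the electron source of Gsr, Txnrd1 and Nqo1, were above 0 in 6 of 6 cases, with a median of 0.18. Taldo1, transaldolase, was at 0.28 with adjusted p = 0.455 (edgeR), and rilmenidine kidneys at 591 to 630.03 normalized CPM overlapped with control kidneys at 421 to 611. Me1, malic enzyme, was at 0.29, but at 0.12 without rilmenidine kidney 3 and 0.056 within the 7 libraries. Idh1 was at 0.15 and Tkt at 0.076. With log2 Malat1 as a covariate Taldo1 was at 0.081 and the median of the list at 0.069.
Among 11 genes of detoxification and export 6 were above 0, with a median of 0.16, and 5 listed genes had too few reads. Abcc4, an exporter of organic anions, was highest of the 38, with 15.8 to 25.8 normalized CPM in control kidneys and 40.01, 38.6, 23.8 and 21.9 in rilmenidine kidneys. Kidneys 1 and 2 lay above every control and kidneys 3 and 4 did not. On the log2 scale the difference was 0.62, with a standard error of 0.22 and adjusted p = 0.337 (edgeR). Abcc2, a related exporter, was at -0.36, Cyp2a5 at -0.23 and Ptgr1 at 0.24. With 1 kidney left out these ran from -0.61 (without rilmenidine kidney 2) to -0.19 (without rilmenidine kidney 1) for Abcc2, from -0.41 (without rilmenidine kidney 3) to -0.11 (without control kidney 3) for Cyp2a5, and from 0.090 (without control kidney 4) to 0.39 (without rilmenidine kidney 4) for Ptgr1. Within the 7 libraries the median of the list was 0.040.
Of the heme and iron genes 5 of 5 were above 0, with a median of 0.24. Blvra, biliverdin reductase, which follows heme oxygenase, was at 0.36, the ferritin subunits Ftl1 and Fth1 at 0.46 and 0.23, and the heme carrier Slc48a1 at 0.14. Ftl1 had 9 to 75 raw counts and has near-identical copies, so its value is uncertain. None of the 5 had an unadjusted p-value under 0.05 in the edgeR fit. With log2 Malat1 as a covariate Blvra was at 0.13, Ftl1 at 0.012 and Fth1 at -0.020. The median of the list was then 0.060, and 0.42 within the 7 libraries.

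**Figure D5:**
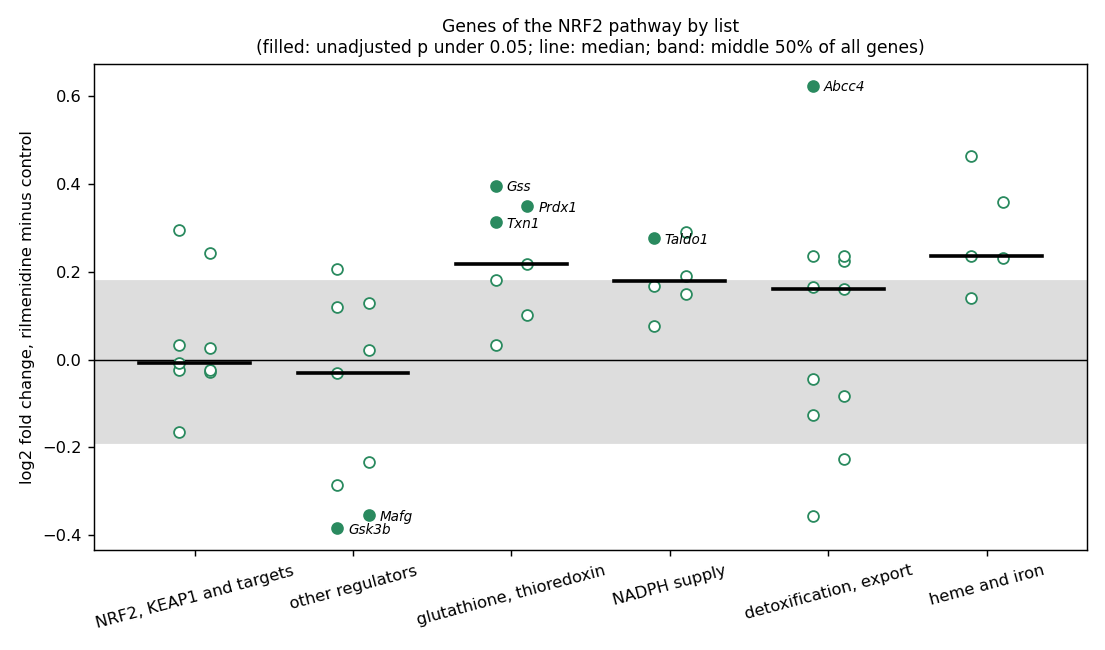
Log2 fold change of rilmenidine minus control kidneys (y axis) for each tested gene of the 10 and of the 5 further lists (x axis), with the median as a line and genes with an unadjusted p-value under 0.05 filled and named. The band is the middle 50% of all genes tested. The glutathione, NADPH and heme lists lie wholly above 0, and the 9 tested members spread around it.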

How the data were processed

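RNA of 6 control and 4 rilmenidine kidneys was compared, and the study's methods describe a larger control group than the one analysed here. The authors deposited raw counts of reads per Ensembl gene without normalization. According to their methods and processing notes, reads were trimmed with Trimmomatic 0.32, mapped with STAR 2.5.2b to mm10 and counted with featureCounts 1.5. The annotation release, strand setting and use of molecular identifiers are not given in the sources used here, so amplification copies may add to the counts and overlapping or antisense genes cannot be told apart. Annotated genes that overlap the members had at most 5 counts where listed. Symbols and coordinates came from GENCODE M21 (GRCm38), which held 42462 of the 43629 genes.
Following the study, genes with at least 6 reads in 7 of the 10 libraries were kept (10055) and scaled by RLE. The fit used edgeR 4.0.16 (R 4.3.3) with the quasi-likelihood test, no covariate and Benjamini-Hochberg adjustment at 0.05 over all genes. Intervals are 95% and use the fit's standard error. Replicates are separate animals. The script was tested on simulated data. The members and lists were chosen with earlier results of these data known. Genes named from the further lists are the 2 highest and 2 lowest by fold change and those with an unadjusted p-value under 0.05, and 3 genes are named for likeness to Nfe2l2 and to Nqo1 (log2 of normalized CPM + 1). Havcr1, Spp1, Vcam1, Kap, Umod, Aqp2, Slc12a1 and Slc12a3 were named after their values were seen. Alternatives were TMM, 2 other count filters, DESeq2 1.42.0, the likelihood ratio test, covariates, a replicate block and left-out libraries. A fit of kidneys 1 to 4 of both groups was added after seeing the data.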

Additional observations from a re-analysis of the deposited data

Results flagged for a closer look

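Keap1 in rilmenidine kidney 1 stood apart from the other treated kidneys, at 32.5 normalized CPM against 44.5 to 46.8. Its gap to the nearest kidney was 0.839 of the range, where 0.829 is the limit for 4 samples. It was 1 of 20 groups examined, the 10 genes in 2 groups each, and chance alone flags about 1 in 20. The same kidney had the highest Nfe2l2 value of all 10, so that its ratio of Nfe2l2 to Keap1, 3.38, was the highest as well.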

How the results depend on the processing

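The count of members called stayed at 0 under all alternatives, and so did that of the 48 further pathway genes. The count over all genes was 241 with every gene of at least 1 count kept, 60 with DESeq2 and 44 with the likelihood ratio test, and 0 to 37 with 1 kidney left out (33 without control kidney 2, 37 without control kidney 6 and 6 without rilmenidine kidney 1). The cause was not tested. Fold changes that changed sign are given here on the log2 scale. Adjusted for log2 library size, Nfe2l2 was at 0.021, Hmox1 at 0.010, Ggt1 at -0.19 and Tkt at -0.021. Adjusted for log2 Malat1, the values were Nfe2l2 0.079, Hmox1 0.15, Gclc 0.34, Park7 -0.094, Ggt1 -0.048, Tkt -0.011 and Fth1 -0.020. Among the 7 libraries of 10 or more CPM on receptor genes (5 control, 2 rilmenidine) they were Gclm -0.15, Txnrd1 -0.078, Gsr -0.023 and Ggt1 -0.27, and a fit of the remaining 3 was not made, as 1 of them is a control. With kidneys 1 to 4 of both groups Hmox1 was at 0.071, Srxn1 at 0.026 and Gsr at -0.017. With the replicate block in those kidneys Hmox1 was at 0.068, Txnrd1 at -0.0012 and Srxn1 at 0.042, and 0 members and 0 genes were called. No label ties a number to a litter or a day, and the deviations of same-numbered kidneys correlated at 0.0761, 0.0777, -0.0769 and -0.0071, so the numbers were not taken as a pairing. With 1 kidney left out, the ranges of the genes that changed sign were -0.099 to 0.076 for Nfe2l2, -0.17 to 0.092 for Hmox1, -0.24 to 0.13 for Gclc, -0.029 to 0.11 for Txnrd1, -0.091 to 0.016 for Srxn1, -0.021 to 0.16 for Gsr, -0.11 to 0.14 for Ggt1 and -0.024 to 0.18 for Tkt. The other named genes kept their direction.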

Other observations

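Some partners of these genes had few reads, and they were chosen after their values were seen. Hmox2, the constitutive heme oxygenase, had at most 1 count in any library, and Gpx2, a gut-type glutathione peroxidase, also at most 1. Hmox2 overlaps Cdip1 on the opposite strand in GENCODE M21, and Cdip1 had 25 to 90 counts. Ftl1, the ferritin light chain, had 9 to 75 counts where Fth1, the heavy chain, had 2808 to 14041. Ftl1 has near-identical copies, of which Ftl1-ps1 had 0 to 5 counts and Ftl1-ps2 had 0, so its value is uncertain. How the counting treated these loci was not tested.
Of the listed genes that failed the filter, 2 more are given for every kidney beside Slc7a11. Aox1, aldehyde oxidase, had 3, 7, 3, 1, 2 and 0 raw counts in control kidneys 1 to 6 and 1, 21, 0 and 0 in rilmenidine kidneys 1 to 4. Ugt1a6a, a glucuronosyltransferase, had 2, 9, 7, 1, 10 and 0, and 5, 14, 1 and 1. Both genes were chosen after their values were seen. Like Slc7a11 they were highest in rilmenidine kidney 2, the library with the most receptor gene reads. The raw counts of Mafk, Nfe2l3, Cbr3 and Abcc3 were also highest there, at 9, 8, 7 and 8. In normalized CPM, Mafk and Abcc3 were instead highest in control kidney 1, at 6.73 and 7.86. Akr1b8 had 16 raw counts in control kidney 6 and 6 in rilmenidine kidney 2, and Maff had 4 and 0 in these. A tie to receptor gene reads was not tested.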
